A study of Mus musculus with 48 samples.

Results

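Whether the liver response to hepatocyte loss of PPARγ depends on diet was asked in 24 male mice of a series of 48. The members are the 4 male groups of 6 whole livers that the sample titles define, and the measure is an interaction: the difference between labelled knockouts and controls on the HFCF diet, minus the same difference on the HF diet. All mice carried a floxed Pparg gene and received an adeno-associated virus (AAV8-TBG) after 16 weeks on diet, either with Cre recombinase (labelled knockout) or as AAV8-TBG-null (control). TBG is a hepatocyte promoter, so Cre was directed to hepatocytes in adults. On the HF diet the mice had high-fat food for 34 weeks, and the labels give their disease state as liver steatosis. HFCF mice had 18 weeks of the HF diet and then 16 weeks of food high in fat, cholesterol and fructose, and their label is non-alcoholic steatohepatitis. RNA was extracted from whole liver, and the labels state no age beyond adult and no strain.

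PPARγ is a nuclear receptor that binds DNA together with RXR and turns on genes of fatty acid uptake, triglyceride storage and lipid droplet coating. Adipocytes depend on it, whereas healthy hepatocytes make little of it, and its level and its targets rise in fatty liver. Its relative PPARα drives fatty acid oxidation in hepatocytes and recognises similar DNA elements.

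The libraries held 15569814 to 22072884 reads on genes. Levels are given as CPM, read counts set relative to library size and scaled with trimmed-mean factors. One library stood apart from its label: HFCF control replicate 1 had a mean correlation of log2 CPM of 0.975 with the other HFCF controls and of 0.987 with the HF controls, while the other 5 HFCF controls lay closest to their own group. It is circled in the plot of levels, and results are given with and without it where it changed a call or a count. Hepatocyte markers dominated every liver. The 10 markers summed to 70307, 87648 and 98931 CPM (lowest, median, highest) in HF controls, against 105138, 118557 and 120780 CPM in HF labelled knockouts. On the HFCF diet the sums were 47201, 58611 and 74619 CPM in controls and 62941, 67856 and 74783 CPM in labelled knockouts. Whole-liver RNA cannot separate a change in the number of cells of a type from a change in RNA per cell.

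Pparg (ENSMUSG00000000440) lies at 115360951 to 115490399 on chromosome 6 of GRCm38, on the plus strand, and served as a check of the labels. It measured 28.4, 36.3 and 38.9 CPM (lowest, median, highest) in HF controls, against 18.4, 42.9 and 63.0 CPM in HF labelled knockouts. In HFCF livers it measured 26.9, 32.5 and 40.4 CPM in controls and 49.2, 57.4 and 65.3 CPM in labelled knockouts. Labelled knockouts were thus not lower on either diet: the HF groups overlapped, and on the HFCF diet every labelled knockout lay above every control. The counts cover the whole gene and do not separate exons inside and outside the deleted part, so this is no check of the deletion, and the groups are called labelled knockouts throughout. Pparg itself had an interaction of 0.53 on the log2 scale (SE 0.24) that was not called by edgeR (adjusted p = 0.246).

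The genes with the smallest interaction p in each direction were Osbpl3 and Serpina11, followed among negative values by Cela1. Their promoters are shown with that of Cidec, the lipid droplet gene with the smallest p, and that of Aqp7, the listed lipid gene with the largest interaction. Each line gives 250 bases upstream of a RefSeq transcription start (GRCm38.p6), 5′ to 3′ on the strand of the gene, all on the minus strand. Capitals mark AGGTCA on either strand (TGACCT on the other), the hexamer of which nuclear receptors such as PPARγ with RXR bind a direct repeat. The windows are chr6:50456171-50456420 for Osbpl3, chr6:113435761-113436010 for Cidec, chr4:41047963-41048212 for the second Aqp7 start, chr12:103989958-103990207 for the first Serpina11 start and chr15:100687921-100688170 for Cela1.
Osbpl3: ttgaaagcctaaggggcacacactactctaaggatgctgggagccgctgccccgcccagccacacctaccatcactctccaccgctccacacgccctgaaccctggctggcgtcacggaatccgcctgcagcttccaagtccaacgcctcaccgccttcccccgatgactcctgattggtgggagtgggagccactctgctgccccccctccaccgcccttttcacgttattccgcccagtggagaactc
Cidec: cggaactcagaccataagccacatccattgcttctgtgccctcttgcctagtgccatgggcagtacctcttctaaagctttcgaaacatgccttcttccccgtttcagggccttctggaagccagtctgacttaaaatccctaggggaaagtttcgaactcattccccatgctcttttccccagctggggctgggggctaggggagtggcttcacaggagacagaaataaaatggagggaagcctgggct
Aqp7: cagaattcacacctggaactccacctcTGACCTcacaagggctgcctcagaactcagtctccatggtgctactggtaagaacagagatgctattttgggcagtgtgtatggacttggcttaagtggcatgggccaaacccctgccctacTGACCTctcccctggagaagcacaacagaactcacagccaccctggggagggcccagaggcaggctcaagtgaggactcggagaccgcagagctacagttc
Serpina11: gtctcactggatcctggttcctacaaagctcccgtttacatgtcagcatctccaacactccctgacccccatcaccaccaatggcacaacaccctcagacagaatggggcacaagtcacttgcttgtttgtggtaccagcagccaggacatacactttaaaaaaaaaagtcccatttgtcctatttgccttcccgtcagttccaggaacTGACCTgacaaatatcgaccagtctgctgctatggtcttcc
Cela1: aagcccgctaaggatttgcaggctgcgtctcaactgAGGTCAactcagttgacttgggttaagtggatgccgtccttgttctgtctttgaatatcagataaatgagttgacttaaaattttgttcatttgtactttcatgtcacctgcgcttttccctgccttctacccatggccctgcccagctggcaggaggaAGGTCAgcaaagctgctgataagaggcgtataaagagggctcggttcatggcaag

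The hexamer lay at -223 and -101 from the second Aqp7 start, at -41 in Serpina11 and at -214 and -55 in Cela1. The window of the first Aqp7 start, not shown, held 1 copy at -49, the same bases as the copy at -223. No copy lay in the windows shown for Osbpl3 and Cidec. Among all 32851 RefSeq windows of 300 bases (250 before to 50 after a start), 16.3% held AGGTCA on either strand. Per gene, counting any of its windows, 15.7% of 11093 tested genes found in the table held it, against 24.4% of 119 genes with a positive called interaction and 14.5% of 62 with a negative one. A direct repeat of AGGTCA with any 1 base between the copies stood in 13 windows and in 6 of the 11093 genes (0.054%). The same repeat of AGGNCA, which includes it, stood in 125 windows and in 39 of the genes (0.35%). Of the called genes 0 held either, but at such low shares they are too few for this to be read as an absence. These are matches of letters, described without a test.

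Across 15096 tested genes, 235 (1.56%) had an interaction with a Benjamini-Hochberg adjusted p under 0.05 in edgeR's quasi-likelihood test and are called here, 75 (0.497%) of them with an absolute log2 of at least 1. Of these, 149 (0.987% of genes tested) were positive, meaning a labelled-knockout difference more positive on the HFCF diet, and 86 (0.57%) were negative. In the same 24 libraries the 2 diet-wise differences that make up each interaction were laid out by sign, as a description. Genes were called on the gap between these 2 differences, so their signs and sizes follow in part from that selection. The counts below are therefore no separate support for the calls, and the shares of all genes, which were not selected, are no like comparison. All 149 positive genes had a lower fitted level in labelled knockouts than in controls on the HF diet, with a median log2 difference of -0.79. On the HFCF diet the median difference of these genes was 0.063: 56 kept a smaller difference of the same sign and 93 had the opposite sign. All 86 negative genes were higher in HF labelled knockouts (median 0.37), and on the HFCF diet 17 kept the sign and 69 did not (median -0.12). The HF difference was the larger one in 136 of the 149 (91.3%) and in 71 of the 86 (82.6%), against 9702 of all 15096 genes (64.3%), and signs were opposite in 40.5% of all genes. The plot of fitted differences on both diets therefore fills mainly the left side above the diagonal and a narrow wedge to the right below it.

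**Figure D1:**
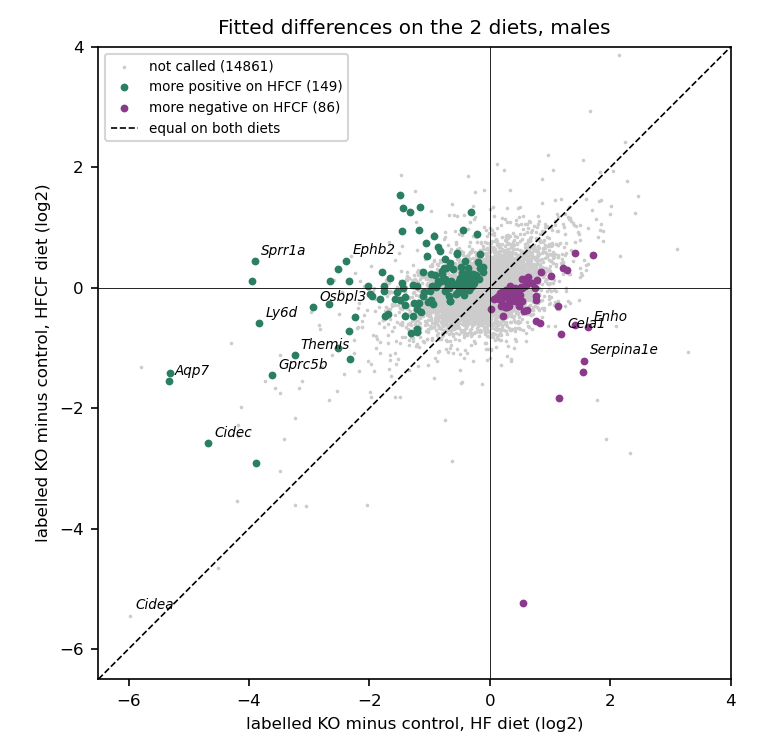
Fitted log2 difference, labelled knockout minus control, on the HF diet (horizontal axis) and the HFCF diet (vertical axis) for 15096 genes in males; grey points were not called, green are the 149 positive and purple the 86 negative interactions, and the dashed line marks equal differences. Cidec, Gprc5b and Ly6d sit far left and above the line, Cela1 and Enho right of zero and below it, and Cidea lies near the line.

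Without HFCF control replicate 1, 282 genes were called (198 positive), of which 206 were among the 235. Single libraries moved the count further, and the negative count most. There were 412 calls (171 negative) without HF control replicate 2, 119 (27 negative) without HF control replicate 3 and 149 (34 negative) without HF control replicate 5. Without either HF labelled knockout replicate 3 or replicate 5 there were 124 (29 negative). The count was 138 (32 negative) without HFCF control replicate 3, 139 (24 negative) without HFCF labelled knockout replicate 1 and 126 (24 negative) without HFCF labelled knockout replicate 3. In all 24 fits with 1 library left out, 99 of the 235 stayed called, 80 positive and 19 negative. The 14 positive and 14 negative genes ranked first by p, which are named below, stayed called in each of those 24 fits, and their values with and without HFCF control replicate 1 stand side by side in the plot of the ranked genes.

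**Figure D2:**
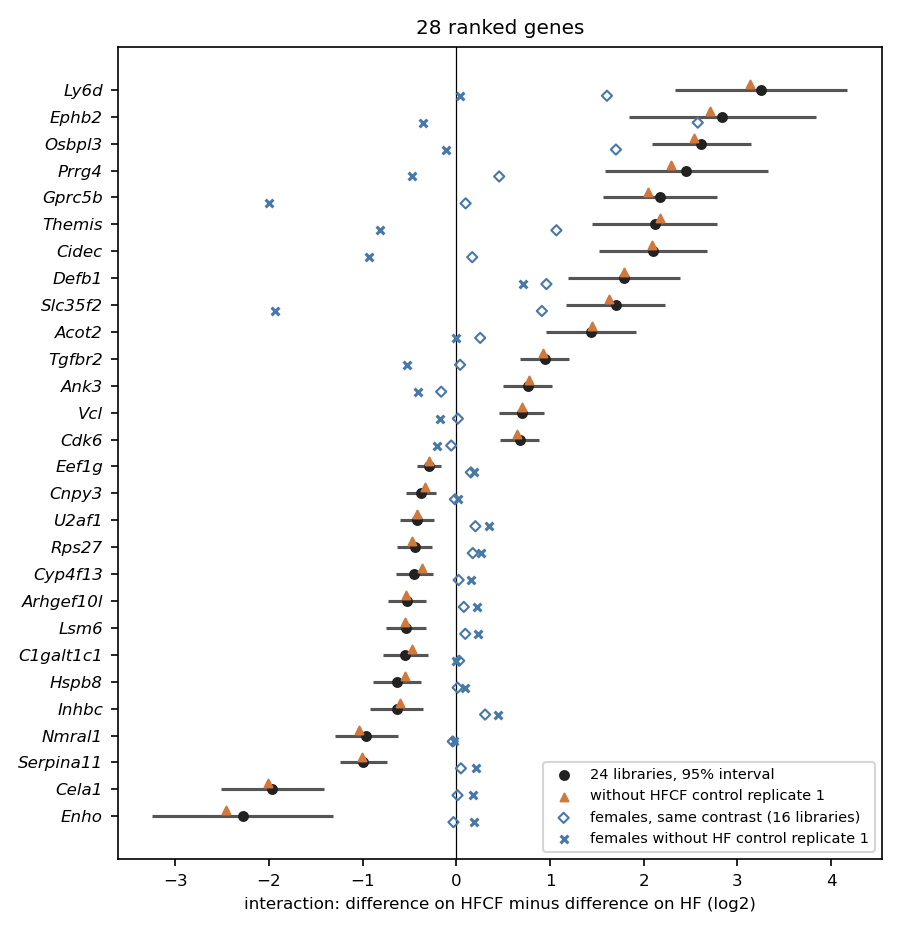
Interaction (log2, horizontal axis) of the 28 ranked genes: black points with 95% intervals from 24 male libraries, orange triangles without HFCF control replicate 1, open blue diamonds the same contrast in 16 female libraries and blue crosses the female contrast without female HF control replicate 1. The triangles stay close to the points for every gene, the diamonds of several positive genes lie right of zero, and most of the crosses do not.

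Lipid droplet genes gave 4 positive and 0 negative calls among 20 tested members, with a median interaction of 0.16 against -0.0084 for all genes. Over all genes tested, 0.987% were called positive and 0.57% negative, the shares beside which this and the later lists stand. Cidec encodes a droplet protein that joins small droplets into large ones and is a known PPARγ target (chromosome 6, 113424634 to 113435760). It measured 116, 141 and 160 CPM (lowest, median, highest) in HF controls, against 4.58, 5.11 and 6.56 CPM in HF labelled knockouts. On the HFCF diet it measured 157, 163 and 178 CPM in controls and 11.5, 27.0 and 45.0 CPM in labelled knockouts. The groups did not overlap on either diet, but each HFCF labelled knockout lay above each HF labelled knockout. Its interaction was 2.10 (SE 0.28, adjusted p = 0.000236).

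Cidea, a family member with a similar role, measured 20.8 ± 6.94 CPM (SD, n = 6) in HF controls, 0.318 ± 0.182 in HF labelled knockouts, 21.4 ± 7.20 in HFCF controls and 0.474 ± 0.347 in HFCF labelled knockouts. Its low level in labelled knockouts was shared by both diets, and its interaction of 0.54 (95% interval -0.80 to 1.88, adjusted p = 0.725) was not called. Cideb, the member that healthy hepatocytes express, had an interaction of -0.13 (adjusted p = 0.635).

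Clstn3, whose locus also encodes a droplet-associated form in fat cells, measured 58.0 ± 7.13, 11.5 ± 2.18, 50.5 ± 12.1 and 22.2 ± 4.04 CPM in the same order of groups. Its interaction was 1.14 (SE 0.20, adjusted p = 0.00361), and the groups did not overlap on either diet. Plin4, a droplet coat protein, measured 149 ± 5.50, 10.1 ± 4.23, 132 ± 11.8 and 17.7 ± 4.73 CPM (interaction 0.99, adjusted p = 0.0393). Most of its difference was thus present on both diets, and 15 of the 24 single-library omissions ended its call, with adjusted p up to 0.0728. Plin4 overlaps Hdgfl2, and reads were not assigned by strand. Abhd5, the activator of the lipase Pnpla2, differed little: 29.0 ± 1.77, 24.03 ± 1.66, 26.4 ± 2.46 and 27.99 ± 1.503 CPM (interaction 0.36, adjusted p = 0.0408). Its groups overlapped on both diets and 16 omissions ended its call (adjusted p up to 0.0811). Plin2, the main droplet coat of hepatocytes, had an interaction of 0.56 (adjusted p = 0.0703) and was not called.

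**Figure D3:**
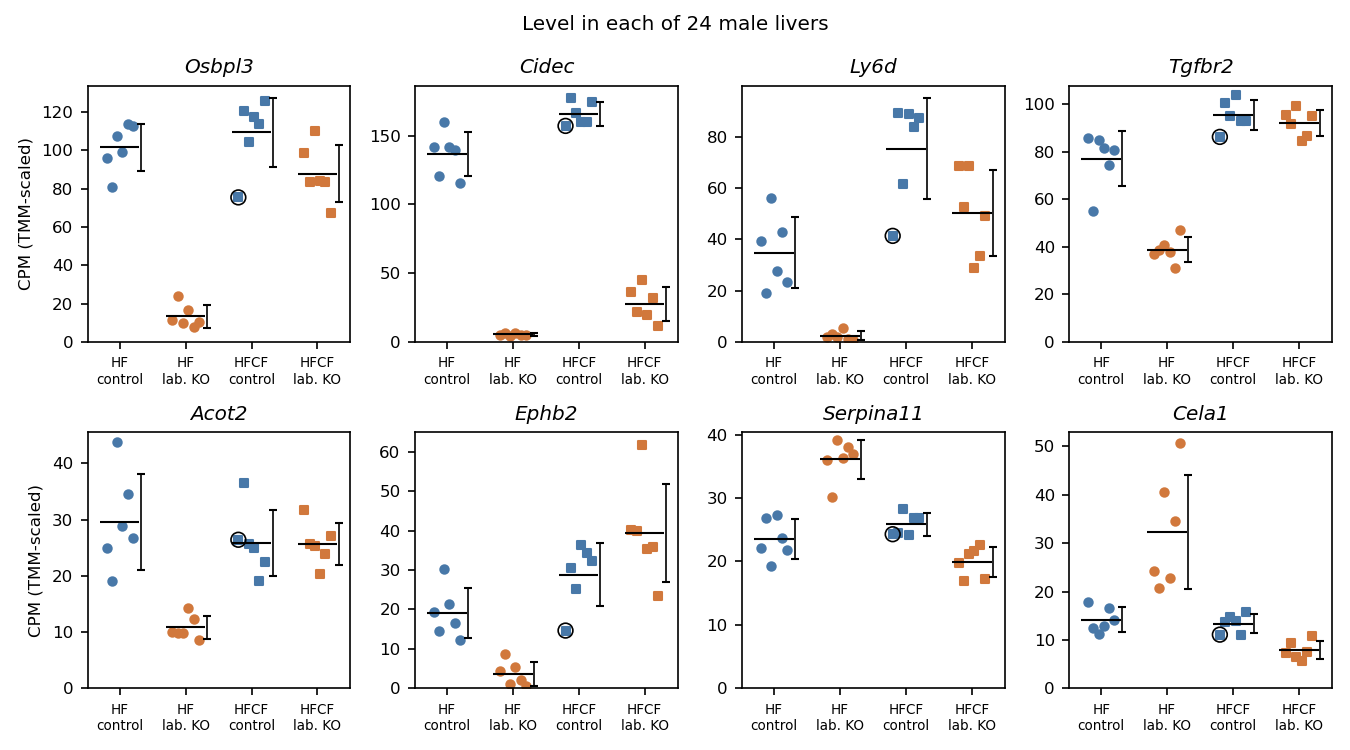
CPM (vertical axis, linear from 0) of 8 genes in each of 24 livers, controls in blue and labelled knockouts (lab. KO) in orange, circles on the HF and squares on the HFCF diet, with group mean and SD; the ringed square is HFCF control replicate 1. For Osbpl3, Ly6d, Tgfbr2, Acot2 and Ephb2 the HF labelled knockouts lie below all other groups' means, and for Serpina11 and Cela1 they lie above.

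Of 17 fatty acid uptake and adipocyte-type genes, 2 were called positive and 0 negative (median 0.014). Aqp7 encodes the glycerol channel of fat cells and is a known PPARγ target (chromosome 4, 41033074 to 41048139). It measured 1.66, 3.27 and 5.09 CPM (lowest, median, highest) in HF controls, against 0.872, 6.85 and 9.47 CPM in HFCF controls. HF labelled knockouts held 0 to 2 reads each, 7 in all, whereas HFCF labelled knockouts measured 1.58, 2.08 and 3.05 CPM. Its interaction of 3.78 (SE 0.72, adjusted p = 0.00742) rests on those few reads and depends on the fit. The lowest HFCF control was the library that stood apart, and without it the interaction was 3.57 (adjusted p = 0.000208). Vldlr, the very-low-density lipoprotein receptor, measured 17.4 ± 2.78, 10.5 ± 2.99, 10.3 ± 2.59 and 12.97 ± 2.22 CPM (HF control, HF labelled knockout, HFCF control, HFCF labelled knockout). The sign of the difference turned with diet (interaction 1.05, adjusted p = 0.0289), although its groups overlapped on both. Without HF control replicate 3 the Vldlr interaction was 1.01 and its adjusted p 0.0549. Cd36, a fatty acid transporter, had 0.75 (adjusted p = 0.0616).

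Triglyceride synthesis gave 1 positive and 0 negative calls among 14 genes (median 0.041). Gpam, the mitochondrial acyltransferase that starts glycerolipid synthesis, measured 409 ± 42.9, 258 ± 27.9, 260.5 ± 63.6 and 345 ± 119 CPM. Its HF groups did not overlap and its HFCF groups did (interaction 1.07, SE 0.24, adjusted p = 0.0255). The call ended with HF labelled knockout replicates 3 and 4 both left out (1.04, adjusted p = 0.0539). Mogat1, a monoacylglycerol acyltransferase, had an interaction of 1.47 (adjusted p = 0.0785). Without HFCF control replicate 1 it was 1.75 and called (adjusted p = 0.0181).

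Osbpl3 had the smallest p of all genes. It encodes an oxysterol-binding-protein-related lipid transfer protein at contacts between membranes (chromosome 6, 50293330 to 50456201). It measured 81.0, 103 and 114 CPM (lowest, median, highest) in HF controls, against 7.78, 10.96 and 24.2 CPM in HF labelled knockouts. On the HFCF diet it measured 75.4, 115.5 and 126 CPM in controls and 67.1, 83.9 and 110.1 CPM in labelled knockouts. The HF groups were apart, the HFCF groups overlapped, and the lowest HFCF control was again replicate 1. The interaction was 2.61 (SE 0.26, adjusted p = 2.404e-06), and 2.53 without that library. None of the other 11 genes of the oxysterol-binding family was called, and the median of all 12 was 0.13. Osbpl5 had the next smallest p (0.54, adjusted p = 0.204), Osbpl7 had 0.42 and Osbpl10, at under 1 CPM in every group mean, had 1.24 (adjusted p = 0.290). Across the 24 libraries the log2 CPM most like that of Osbpl3 belonged to Uap1l1 (Pearson r = 0.963), Ly6d (0.955), Synj2 (0.947), Plekha1 (0.943) and Cntnap1 (0.934). All of these libraries share the 4 groups, so the correlations describe the group pattern. Each of these genes was itself called positive, with interactions from 0.81 to 3.25.

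Lipogenesis and fructose-use genes leaned positive: 19 of 23 tested values were above 0, against 48.6% of all genes. The median was 0.65, with 2 positive calls and 0 negative. Scd2, a stearoyl-CoA desaturase, measured 22.2 ± 3.76, 12.8 ± 1.63, 64.8 ± 7.43 and 76.0 ± 19.4 CPM (interaction 1.02, adjusted p = 0.0072). Its means were higher on the HFCF diet with either virus, and only its HF groups were apart. Fads2, the delta-6 desaturase, measured 1128 ± 77.2, 803 ± 94.0, 906 ± 144 and 1015 ± 150.3 CPM (interaction 0.65, adjusted p = 0.0236). Acacb, acetyl-CoA carboxylase of the mitochondrial surface, had 1.28 (adjusted p = 0.0703), and 1.47 with a call (adjusted p = 0.0324) without HFCF control replicate 1. Without that library the list had 5 positive calls and a median of 0.68. Elovl3, a fatty acid elongase, had the opposite sign (-1.57, adjusted p = 0.0616).

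Among 24 PPARA targets, 3 were called positive and 0 negative (median 0.25), and 4 without HFCF control replicate 1. Acot2, a mitochondrial acyl-CoA thioesterase, measured 19.0, 27.8 and 43.7 CPM (lowest, median, highest) in HF controls, against 8.54, 10.0 and 14.3 CPM in HF labelled knockouts. HFCF controls measured 19.0, 25.3 and 36.5 CPM and HFCF labelled knockouts 20.4, 25.5 and 31.7 CPM. Only the HF groups were apart (interaction 1.44, SE 0.23, adjusted p = 0.00217), with the limit that Acot1 and Acot3 are close paralogs. Pdk4, a kinase that shuts off pyruvate oxidation, measured 28.6 ± 10.6, 8.06 ± 3.07, 26.6 ± 8.06 and 23.2 ± 12.95 CPM. Its interaction of 1.63 (adjusted p = 0.0472) was no longer called without HFCF control replicate 1 (1.54, adjusted p = 0.0581) and in 15 of the 24 omissions. Cpt1a, which admits fatty acids to mitochondria, measured 909 ± 53.8, 716 ± 70.3, 741 ± 46.0 and 744.5 ± 10.9 CPM (0.35, adjusted p = 0.0416), and 16 omissions ended that call. Ppara itself had 0.52 (adjusted p = 0.145). The list of 17 PPAR receptors, RXR partners and coregulators had 0 calls in edgeR and 0 calls in the DESeq2 Wald test (median 0.026). In edgeR 5 members had an unadjusted p under 0.05, as did 17.1% of all genes.

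Several of the first-ranked positive genes encode receptors and structural proteins. Tgfbr2, the type II TGF-β receptor (chromosome 9, 116084293 to 116175360), measured 55.2, 81.0 and 85.7 CPM (lowest, median, highest) in HF controls, against 30.9, 38.2 and 47.1 CPM in HF labelled knockouts. HFCF controls measured 86.2, 94.0 and 103.9 CPM and HFCF labelled knockouts 84.6, 93.2 and 99.1 CPM. The HF groups did not overlap, and the HFCF groups covered nearly the same range (interaction 0.94, SE 0.13, adjusted p = 0.000236). Of 31 TGF-β and BMP genes, Tgfbr2 was the 1 positive call and the BMP receptor Acvr1 the 1 negative call (-0.41, adjusted p = 0.0334), and the median was 0.034. For Acvr1, 11 of the 24 omissions ended the call, with adjusted p up to 0.0897.

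Ephb2, a receptor for membrane-bound ephrins, measured 12.4, 18.0 and 30.2 CPM (lowest, median, highest) in HF controls, against 0.464, 3.22 and 8.59 CPM in HF labelled knockouts. It measured 14.6, 31.3 and 36.4 CPM in HFCF controls and 23.5, 37.9 and 61.8 CPM in HFCF labelled knockouts. Only the HF groups were apart, and the lowest HFCF control was replicate 1 (interaction 2.84, SE 0.48, adjusted p = 0.00306). Ly6d, a lipid-anchored surface protein, measured 19.1, 33.7 and 56.1 CPM in HF controls, against 0.861, 1.996 and 5.53 CPM in HF labelled knockouts. HFCF controls measured 41.4, 85.6 and 89.4 CPM and HFCF labelled knockouts 28.9, 50.9 and 68.8 CPM, so that both HFCF groups reached higher than any HF liver (interaction 3.25, SE 0.45, adjusted p = 0.000255). Gprc5b, an orphan receptor, measured 24.9 ± 4.96, 2.01 ± 0.428, 10.5 ± 2.94 and 3.82 ± 1.06 CPM (interaction 2.18, adjusted p = 0.000236). Its interaction came with a lower HFCF control level, and it overlaps Iqck. Themis, known from T cell development, measured 21.4 ± 6.31, 2.23 ± 1.02, 22.6 ± 4.37 and 10.3 ± 2.58 CPM (2.12, adjusted p = 0.00103), with groups apart on both diets. The 10 markers of T and NK cells summed to 4.66 to 13.8 CPM on the HF diet and to 5.48 to 16.5 CPM on the HFCF diet.

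Slc35f2, a solute carrier, measured 7.32 ± 1.31, 2.16 ± 0.834, 7.78 ± 1.45 and 7.52 ± 0.743 CPM (1.70, adjusted p = 0.000879). Defb1, a beta-defensin, had a lower mean in labelled knockouts on the HF diet and a higher one on the HFCF diet, at 6.92 ± 2.31, 3.64 ± 0.962, 5.56 ± 0.133 and 10.1 ± 2.89 CPM (1.79, adjusted p = 0.00217), with overlap on both diets. Prrg4, a membrane protein with a Gla domain, had a mean of 0.528 CPM in HF labelled knockouts and of 2.73 to 4.76 CPM elsewhere (2.45, adjusted p = 0.00328). Cdk6, a cyclin-dependent kinase, had 0.67, the membrane adaptor Ank3 had 0.76 and the adhesion protein Vcl, which overlaps Ap3m1, had 0.70. For these last 3 genes, ranked by p in the same livers, the HF groups were apart and the HFCF groups overlapped.

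Matrix and cell cycle genes leaned positive, mostly without calls. Of 31 extracellular matrix genes 30 had positive values (median 0.45), against 48.6% of all genes, with 1 positive call and 0 negative. That call was Mmp12, a macrophage elastase, which measured 12.7 ± 4.61, 3.28 ± 2.07, 38.6 ± 12.5 and 35.3 ± 8.76 CPM (interaction 1.83, adjusted p = 0.0289). Without HF labelled knockout replicate 3 or 5 its adjusted p was 0.0584 or 0.0583, and with replicates 3 and 4 both left out it was 0.0643. The macrophage marker list, of which Mmp12 is also a member, had a median interaction of 0.40. On the HF diet its 16 members summed to 448, 573 and 656 CPM (lowest, median, highest) with the null virus and to 352, 417 and 472 CPM in labelled knockouts. On the HFCF diet the sums were 605, 1514 and 1721 CPM in controls and 971.7, 1183 and 1621 CPM in labelled knockouts, the lowest control standing below every labelled knockout. The 12 stellate cell markers summed to 605, 478, 771 and 700 CPM (medians in the same order). Their part in the matrix values was not tested. Of 24 cell cycle genes 21 had positive values (median 0.55). None was called in edgeR, and the DESeq2 Wald test called 1. In edgeR 9 had an unadjusted p under 0.05, all positive, against 17.1% of all genes in either direction. With HF labelled knockout replicates 3 and 4 both left out, 4 were called.

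Serpina11 led the negative genes. It is a member of the serpin family of secreted protease inhibitors (chromosome 12, 103980243 to 103989957). It measured 19.3, 22.9 and 27.2 CPM (lowest, median, highest) in HF controls, against 30.1, 36.6 and 39.1 CPM in HF labelled knockouts. HFCF controls measured 24.1, 25.7 and 28.3 CPM and HFCF labelled knockouts 17.0, 20.4 and 22.6 CPM. The order of the groups turned with diet, with no overlap on either (interaction -0.99, SE 0.12, adjusted p = 0.000105). Cela1, an elastase of the chymotrypsin family (chromosome 15, 100674421 to 100687921), showed the same turn. It measured 11.2, 13.4 and 17.9 CPM in HF controls, against 20.8, 29.5 and 50.6 CPM in HF labelled knockouts. HFCF controls measured 11.1, 13.8 and 15.8 CPM and HFCF labelled knockouts 5.68, 7.43 and 10.7 CPM (interaction -1.96, SE 0.27, adjusted p = 0.000236). Cela1 is also a pancreas acinar marker, and it was the 1 of 15 such markers abundant enough to be tested. All acinar markers together summed to 12.01 to 51.1 CPM in HF livers and to 5.95 to 16.2 CPM in HFCF livers, nearly all of it Cela1, and Ctrb1 was at 0 in all 24 livers.

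Enho, which encodes the secreted peptide adropin, measured 3.77 ± 1.59, 11.7 ± 4.12, 2.55 ± 1.57 and 1.64 ± 0.271 CPM (interaction -2.28, adjusted p = 0.0137). Only its HF groups were apart, and it overlaps Dnaic1. Nmral1, a redox sensor protein, measured 4.35 ± 0.374, 7.39 ± 0.682, 6.06 ± 1.03 and 5.27 ± 0.629 CPM (-0.96, adjusted p = 0.00306). Inhbc, the activin C subunit made by hepatocytes, measured 45.4 ± 2.87, 64.6 ± 8.64, 41.9 ± 4.16 and 38.4 ± 6.48 CPM (-0.64, adjusted p = 0.0176). Hspb8, a small heat shock protein, had -0.63 and the exchange factor Arhgef10l -0.52. The remaining negative genes of the ranking lay between -0.54 and -0.29: the RNA-processing factors Lsm6 and U2af1, the translation genes Rps27 and Eef1g, the fatty acid hydroxylase Cyp4f13, the chaperone Cnpy3 and the glycosylation chaperone C1galt1c1. Of these 7, Cnpy3 and Eef1g were apart on the HFCF diet and overlapped on the HF diet, C1galt1c1 overlapped on both, and the other 4 were apart on the HF diet alone. The Eef1g overlap was narrow, with a lowest HF labelled knockout of 161.6 CPM and a highest HF control of 161.8 CPM. All 7 were ranked by p in these same livers, so such separation is no further evidence.

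The serpin and acute phase list had 3 negative and 0 positive calls among 28 tested genes, of which 8 had positive values (median -0.27). Serpina1c and Serpina1e, near-identical α1-antitrypsin copies among which reads can be split, measured 476 ± 91.3, 958.7 ± 211, 344 ± 84.5 and 392 ± 52.3 CPM and 122 ± 69.7, 362 ± 376, 102.5 ± 40.03 and 44.3 ± 14.8 CPM. Serpina1e had an interaction of -2.78 (adjusted p = 0.0255), with groups that overlapped on both diets. For Serpina1c (-0.82, adjusted p = 0.0477) 18 of the 24 omissions ended the call, among them HFCF control replicate 1 (-0.67, adjusted p = 0.0651). Without that library Itih3, another member of the list, was called (-0.59, adjusted p = 0.0391), so the list again had 3 negative calls. Complement and coagulation genes had 3 negative and 0 positive calls among 37, with 5 positive values (median -0.24), and all 17 members with an unadjusted p under 0.05 were negative, a p that 17.1% of all genes reached. C8b, a subunit of the membrane attack complex, measured 63.4 ± 10.4, 170 ± 42.1, 57.1 ± 7.90 and 85.4 ± 10.9 CPM (-0.84, adjusted p = 0.0247). It was higher in labelled knockouts without overlap on both diets, more so on the HF diet. Without HFCF labelled knockout replicate 1 or 3 its adjusted p was 0.0524 or 0.0548. The C1 inhibitor Serping1 (-0.50, adjusted p = 0.0279) and the plasmin inhibitor Serpinf2 (-0.45, adjusted p = 0.0334) lost their calls in 7 and 12 of the 24 omissions. Both also missed the call with the gene-length trend described below removed (adjusted p = 0.0543 and 0.0609), as did Serpina1c (0.0768), so that the complement list kept 1 call there (median -0.19) and the serpin list 2 (median -0.20).

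Among 26 genes of endoplasmic reticulum and integrated stress, 2 were called negative and 0 positive (median -0.45), 4 had positive values, and 16 of the 17 with an unadjusted p under 0.05 were negative. Dnajb11, a chaperone of the secretory pathway, measured 72.7 ± 8.95, 91.2 ± 6.45, 72.1 ± 6.68 and 60.8 ± 9.05 CPM (-0.57, adjusted p = 0.0245). The disulfide isomerase Pdia3 measured 368 ± 47.8, 450 ± 49.9, 386 ± 36.5 and 310 ± 47.3 CPM (-0.61, adjusted p = 0.0306), with overlap on both diets, and 6 omissions ended its call. Without HFCF control replicate 1 the list had 3 negative calls, the added one being the chaperone Sdf2l1 (-1.11, adjusted p = 0.0468). Hsp90b1 (-0.57) and Creld2 (-1.05), further chaperones of that compartment, had adjusted p of 0.0556 and 0.058, while Atf3, a stress-induced factor, had 1.01 (adjusted p = 0.0987). The summed hepatocyte markers given above were highest in HF labelled knockouts too. The 10 hepatocyte markers had a median interaction of -0.39, with 1 negative call (Serpina1c, a member of both lists). The 8 red blood cell markers also had their highest sums there, with medians of 191, 412, 161 and 191 CPM (HF control, HF labelled knockout, HFCF control, HFCF labelled knockout), a highest HF labelled knockout of 849.7 CPM and a median interaction of -1.22, with 0 calls. The part of either in the values of the negative genes was not tested.

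**Figure D4:**
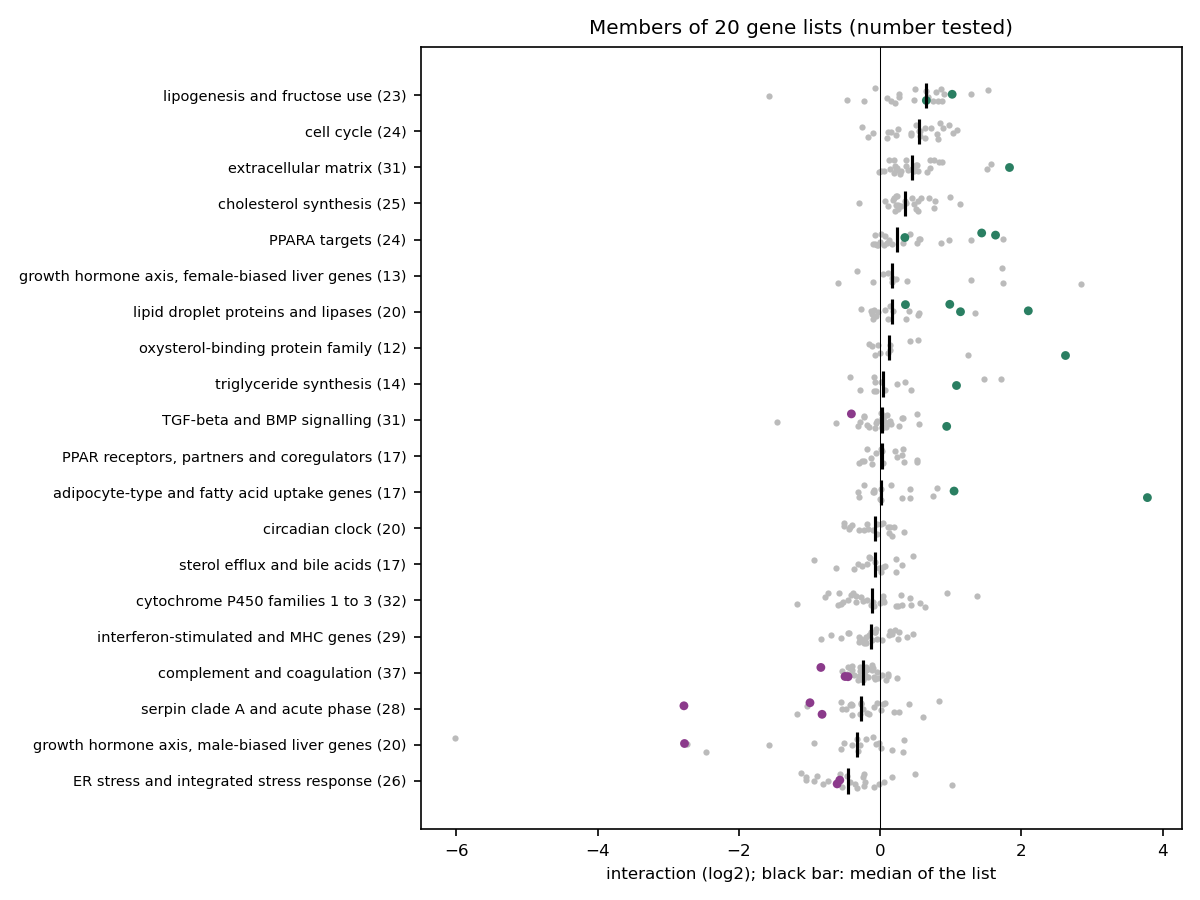
Interaction (log2, horizontal axis) of every tested member of 20 gene lists, with the number tested in parentheses, ordered by the list median (black bar); green and purple points are called positive and negative members, grey points were not called. Lipogenesis, cell cycle and matrix lists lie at the top with medians of 0.65, 0.55 and 0.45, and ER stress lies at the bottom with -0.45.

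Other lists held few or no calls. None of 25 cholesterol synthesis genes was called in edgeR or in the DESeq2 Wald test. Positive values were held by 24 (median 0.35), against 48.6% of all genes. In edgeR 4 of the 25 (3 positive, 1 negative) had an unadjusted p under 0.05, a p that 17.1% of all genes reached. Among these 4, Sqle had 1.13 with a 95% interval of 0.034 to 2.23 (adjusted p = 0.275). One growth hormone list joined members of the axis, such as Ghr, Stat5b and Igf1, with male-biased liver genes. It had Serpina1e as its 1 negative call of 20 (median -0.32). In the female-biased list 0 of 13 genes were called (median 0.17, 3 with an unadjusted p under 0.05 in edgeR, 0 in the Wald test). The lists of sterol efflux and bile acids (17 tested), cytochromes P450 of families 1 to 3 (32), the circadian clock (20) and interferon-stimulated and MHC genes (29) had 0 calls each in edgeR. Before adjustment 3, 7, 2 and 1 of their members lay under 0.05, as did 17.1% of all genes. DESeq2 called 1, 2, 0 and 0 by its Wald test. Altogether 24 of 452 tested list genes were called, against 235 of all 15096 genes (1.56%). The lists were chosen with earlier results of these data known, so this is a description.

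Called genes differed in length by direction. The median length was 5777 bases for positive, 2324 bases for negative and 4051 bases for genes not called. Over all tested genes the median interaction ran from -0.118 in the shortest of 10 equal bins by length to 0.088 in the longest. Within libraries, the level of the longest against the shortest bin was lowest in HF labelled knockouts, from -0.365 to 0.034 on the log2 scale, with replicates 3 and 4 at the bottom. It ran from -0.0695 to 0.040 in HF controls, from -0.103 to 0.165 in HFCF controls and from 0.021 to 0.162 in HFCF labelled knockouts. A fit with this length trend removed per library called 198 genes, 139 of them positive, and 168 were among the 235. Of the 28 ranked genes, 25 kept their call there, and Rps27, Eef1g and C1galt1c1 missed it with adjusted p of 0.059, 0.0519 and 0.0519. Ribosomal protein genes, a family examined after their values were seen, were negative in all 77 tested, with 8 called and a median of -0.24. With the length trend removed 1 was called and the median was -0.15. Of the 24 called list genes 18 kept their call, and Abhd5, Pdk4, Vldlr, Serpina1c, Serpinf2 and Serping1 did not. With HF labelled knockout replicates 3 and 4 both left out, 215 genes were called, 154 of them positive, and 149 were among the 235. The list genes that lost their call there were Acvr1, Cpt1a, Gpam, Mmp12, Pdia3, Pdk4, Plin4 and Serpinf2.

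**Figure D5:**
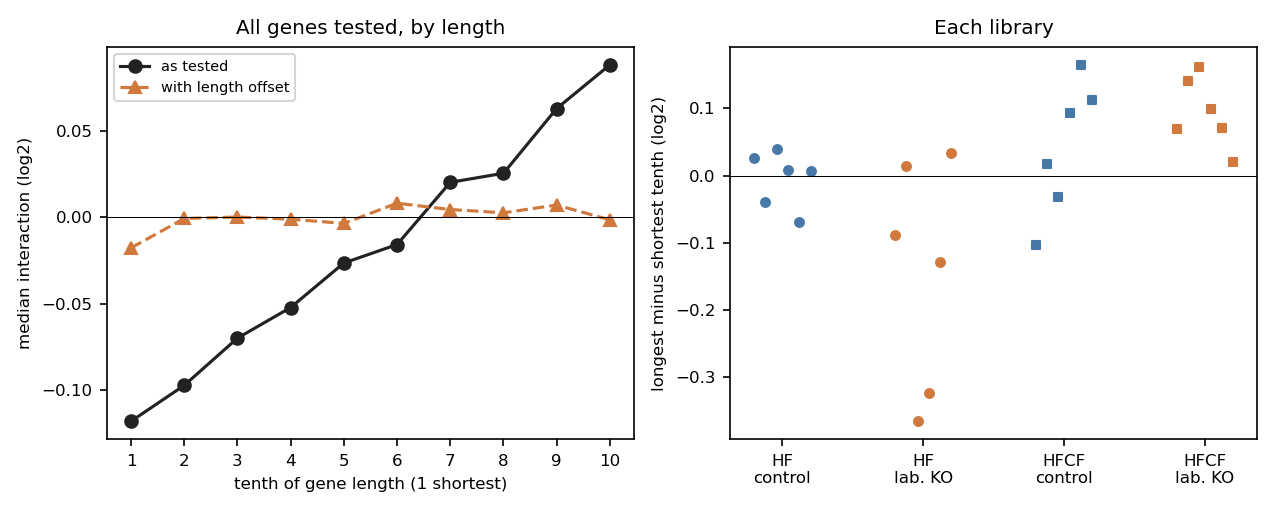
Left, median interaction (log2) of tested genes in 10 equal bins of gene length, as tested (black) and with the length offset (orange); right, log2 level of the longest against the shortest bin in each of 24 libraries. The black line rises from -0.118 to 0.088, and 2 HF labelled knockouts lie far below the other libraries.

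Females on the same diets, 4 groups of 4 livers that the male fit did not use, gave a separate reading of the contrast. The difference between the male and the female interaction was called for 0 of 16077 genes (0%) in edgeR and for 0 in the DESeq2 Wald test, while 2050 (12.8%) had an unadjusted p under 0.05. The female interaction alone had 0 calls in that fit of 40 libraries, with 1318 genes (8.2%) at p under 0.05 before adjustment, and the male interaction had 15 (0.0933%). Of the 149 genes positive in males, 95 (63.8%) had a positive female value, against 50.9% of all genes. That share turned on 1 liver. Female HF control replicate 1 measured 100.2 CPM for Osbpl3, where the other 3 female HF controls measured 4.08 to 15.3 CPM. Without it 40 of the 149 (26.8%) had a positive female value, against 48.7% of all genes, and the sex difference was called for 14 genes; leaving out any other of the 40 libraries gave 0. Most of the 86 genes negative in males had the opposite sign in females, with or without female HF control replicate 1. With that library 14 of 86 (16.3%) were negative, against 49.1% of all genes. Without it 12 of 86 were negative, against 7745 of all 15096 genes. Female HFCF labelled knockout replicate 1 also stood apart from its group. It measured 12.61 CPM for Osbpl3, against 51.36 to 76.39 CPM in its group mates, and 38.65 CPM for Serpina11, against 18.99 to 25.33 CPM. Without it the sex difference had 0 calls and 1280 genes with an unadjusted p under 0.05 in edgeR. Female signs without this library were not examined.

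Osbpl3 had a female interaction of 1.70 (95% interval 0.22 to 3.19), and -0.11 without female HF control replicate 1. For Cidec the female value was 0.17 (95% interval -1.05 to 1.39), and for Tgfbr2 0.040 (-0.62 to 0.70). The male minus female difference was 0.91 (SE 0.93, adjusted p = 0.707) for Osbpl3, 1.93 (SE 0.77, adjusted p = 0.304) for Cidec and 0.90 (SE 0.42, adjusted p = 0.359) for Tgfbr2. Serpina11 and Cela1 had female values of 0.049 and 0.013, and differences of -1.04 (SE 0.30, adjusted p = 0.267) and -1.97 (SE 0.45, adjusted p = 0.266). Female HF control replicate 1 was the lowest of its group for both, at 22.9 and 9.55 CPM. No gene was therefore shown to differ between the sexes in its diet dependence with all 40 libraries.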

How the data were processed

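Whole-liver RNA of 24 male mice was compared, with 16 female libraries for the test between sexes. Per the submitters' processing notes, STAR 2.6.1 and HTSeq 0.6.1 were used and the build was GRCm38. The labels state that libraries were not strand specific. The authors deposited raw read counts per gene, 1 column per library, and these counts were joined by gene identifier from 11 tables. A gene was set to 0 in a library only where no table holding that library listed it. The tables list genes with at least 2 reads, and 4279 of 27573 genes in male tables were missing from at least 1 male table. Libraries held 15569814 to 22072884 reads on genes, so precision is set mainly by the spread between mice (biological coefficient of variation 0.145).

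Counts were fitted with edgeR 4.0.16 in R 4.3.3 (trimmed-mean factors, filterByExpr by group, 1 mean per group, quasi-likelihood F test, Benjamini-Hochberg adjustment over all genes tested). The script was tested on simulated data. Sex differences came from 1 fit of 8 groups. The alternatives were DESeq2 1.42.0 size factors and its Wald test, no filter, a minimum of 10 counts per library and a log2 size limit of 1. Further ones were replicate numbers or 3 ranges of animal numbers as a block, all 10 groups in 1 fit and each library left out. The ranges were set for this comparison, and the labels do not name them as batches. A gene-length offset and the omission of 2 libraries together were added after the data were seen. Named are Pparg, the first 14 called protein-coding genes in each direction by p with a mean of at least 1 CPM, called members of 20 lists, up to 4 members per list with the smallest p, and the Cide and oxysterol-binding families. Atf3, Plin2, Sdf2l1, Itih3, the ribosomal protein genes and the female libraries named singly were singled out after their values were seen. The members and lists were chosen with earlier results of these data known. Overlap of groups describes genes mostly chosen by p in the same libraries, and its share over all tested genes is not given. Likeness used log2(CPM + 1). Promoters came from RefSeq (GRCm38.p6).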

Additional observations from a re-analysis of the deposited data

Results flagged for a closer look

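In 116 sets of 6 livers (the ranked genes and Pparg, by group), 7 held a liver far from the other 5 by Dixon's gap test at the 95% level. Among independent sets about 1 in 20 would be flagged. These sets share the same livers and mostly hold genes chosen by p, so whether 7 of 116 exceeds chance was not tested. Of the 7, 3 fell in HFCF control replicate 1, the library closest to the HF controls: Gprc5b at 4.92 CPM (group median 11.3), Cnpy3 at 52.6 CPM (45.5) and C1galt1c1 at 18.1 CPM (14.4). Tgfbr2 was low in HF control replicate 2, at 55.2 CPM against a median of 81.0, and still above every HF labelled knockout. Serpina11 was low in HF labelled knockout replicate 2 (30.1 CPM, median 36.6) and above every HF control. Cnpy3 was low in HFCF labelled knockout replicate 2 (31.7 CPM, median 37.1). Eef1g was high in HF labelled knockout replicate 3 (177 CPM, median 166.5).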

How the results depend on the processing

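The 235 male calls became 585 with the DESeq2 Wald test, 127 with a replicate block, 12 with all 10 groups in one fit (all among the 235) and 75 with an absolute log2 of at least 1. Other settings gave 223 (DESeq2 size factors), 170 (no filter, 136 positive and 34 negative), 251 (at least 10 counts), 277 (animal number block), 198 (length offset) and 215 (2 libraries left out). Leaving out each library gave 119 to 412. For the sex difference, every setting gave 0, except leave-one-out, which gave 0 to 14. Of 28 ranked genes, 28 kept their call with both kinds of DESeq2 fit, with either block and in all 24 leave-one-out fits; with at least 10 counts in every library 26 were tested and kept it. The fit of all 10 groups kept 7 of them (Cidec, Ly6d, Defb1, Prrg4, Serpina11, Cela1 and Nmral1), and the filter-free fit lost Eef1g. No named gene that was called changed sign. Of the 24 called list genes, the fit of all 10 groups kept 2 (Cidec and Serpina11). The medians of 5 of 20 lists changed sign: triglyceride synthesis, PPAR receptors and interferon and MHC genes under some setting, and, without HFCF control replicate 1, TGF-β signalling (0.034 to -0.053) and cytochromes P450 (-0.12 to 0.10). The causes were not tested. Replicate numbers did not pair the livers: 7 of 36 same-number correlations of deviations exceeded 0.1 (range -0.272 to 0.242), and 4 of 24 libraries correlated best with their own number. With that block 34 of the 127 calls were negative, and 9 called list genes were not called (Abhd5, Acvr1, Cpt1a, Mmp12, Pdk4, Plin4, Serpina1c, Serpina1e and Serpinf2). Depth limits Aqp7, Osbpl10 and Prrg4, which have few reads.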
